A study of Mus musculus with 4 samples.

Results

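T-box genes encode transcription factors that bind DNA through a shared T-box domain. The members described here were 8 of them, Tbx1, Tbx2, Tbx3, Tbx4, Tbx5, Tbx15, Tbx18 and Tbx20, taken as every array probe whose gene name in the scanner files was one of these symbols. This gave 10 of the 39429 gene probes of the array and 8 of its 29924 gene names. The RNA came from whole ureters of wild-type NMRI mouse embryos, dissected at E12.5 (days of embryonic development) and cultured for 18 h on membranes without serum, either with 10 µM IWP-2 or with its solvent DMSO as the control. IWP-2 inhibits Porcupine, the enzyme that adds the lipid every WNT ligand needs to be secreted, so it lowers WNT signaling in both the epithelium and the mesenchyme of the explant, and no allele was altered in either group. Each of 4 two-colour arrays compared RNA of pooled IWP-2-treated ureters with RNA of pooled control ureters. The treated RNA was in the red channel on arrays 1 and 3 and in the green channel on arrays 2 and 4. The labels number the replicates but do not say how separately they were cultured. The study's methods give n = 4 at E12.5, but its results and a figure legend name 2 microarrays and 2 pools per stage. Whether the 4 arrays hold 4 separate pairs of pools or fewer is therefore not known. The p-values below measure the spread between these 4 arrays.

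In the early ureter, the mesenchyme around the epithelial tube is marked by Tbx18, which it needs to form the smooth muscle coat. TBX2 and TBX3 are closely related repressors of the same mesenchyme, and Tbx3 is also known for its roles in limb and mammary gland. TBX4 and TBX5 are activators best known from hindlimb and forelimb buds and from lung mesenchyme, TBX1 from the pharyngeal arches, TBX20 and TBX5 from the heart, and TBX15 from skin and skeleton. Tbx2 lies next to Tbx4, and Tbx3 next to Tbx5, in gene pairs that arose from an ancestral duplication.

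The arrays were of even quality. Between 3.01% and 3.38% of the spots of an array carried an outlier mark and were left out, no gene spot was saturated, and the log2 ratios of array pairs correlated across genes with r between 0.62 and 0.83. All 6 genes chosen as a check of WNT activity (Axin2, Lef1, Nkd1, Sp5, Apcdd1 and Tcf7) fell, with a median log2 ratio of -1.58. Every tested marker of epithelium, endothelium and blood rose, beside 18.1% of all genes tested. With some other ways of processing fewer of these markers did, as described with the gene lists. Of the 22455 genes that were well above background in 1 of the groups, 33.1% passed the test at an adjusted p under 0.05.

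In control ureters the brightest T-box probe was that of Tbx3, followed by Tbx18, Tbx2, Tbx4, Tbx1, Tbx20 and Tbx5. Tbx3 had a normalised intensity of 36100 ± 2079 (mean ± SD, n = 4), Tbx18 of 24240 ± 2861 and Tbx2 of 11070 ± 1671. Next came Tbx4 with 1031 ± 262, Tbx1 with 788 ± 135, Tbx20 with 537 ± 166 and Tbx5 with 232 ± 33.5. These values carry an offset of 50 intensity units from the background correction. Each of Tbx3, Tbx18 and Tbx2 was separated from its neighbours in this order on all 4 arrays, and Tbx20 from Tbx5 likewise. The control ranges of Tbx4 and Tbx1 overlapped, as did those of Tbx1 and Tbx20, with Tbx1 above Tbx20 on 3 of 4 arrays. In exact sign-flip tests between neighbours the p was 0.25 for Tbx1 against Tbx20, and for the other neighbours it was the smallest that 4 arrays allow, which lies above 0.05. The brightness of a probe depends on its sequence as well as on the transcript, so this is an order of probe signals, not of transcript numbers. Tbx15 was not well above background on any of the 4 control arrays, where it read between 73.8 and 83.6, and was so on 1 of the 4 treated arrays, where it read between 83.4 and 87.9. It was left out of the test and is given no fold change.

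**Figure D1:**
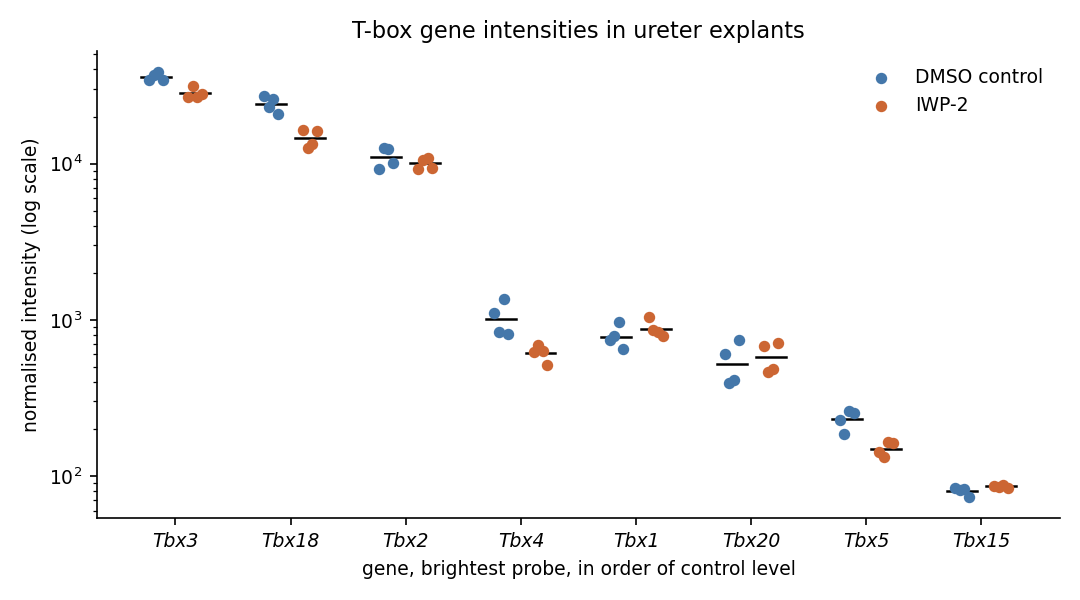
Normalised intensity (log scale) of the brightest probe of each T-box member in the 4 control channels (blue) and the 4 IWP-2 channels (orange), with bars at the geometric means. Tbx18, Tbx4, Tbx5 and Tbx3 have all IWP-2 points below all control points, while the points of Tbx2, Tbx20 and Tbx1 overlap and Tbx15 lies below 100 in both groups.

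After 18 h of IWP-2, 4 of the 7 members tested fell (Tbx18, Tbx4, Tbx5 and Tbx3), none rose, and Tbx2, Tbx20 and Tbx1 did not pass the test. Among all genes tested, 15% fell and 18.1% rose. The median log2 ratio of treated over control was -0.36 over the 7 members and 0.001 over all genes tested. The 4 members that fell were also the ones whose treated intensities all lay below all control intensities, a separation seen for 11.5% of all genes tested. No member showed the reverse separation, seen for 11%, and none fell at least 2-fold, as 0.735% of all genes did, although Tbx5 passed that size with the deposited fold changes (-1.02). All values come from 1 limma fit across all genes with a dye term and Benjamini-Hochberg adjustment. In whole explants, fewer mesenchymal cells and less RNA per cell cannot be told apart.

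Tbx18 is the marker of the ureteric mesenchyme. Its control intensities on arrays 1 to 4 were 27140, 23000, 25970 and 20830, and its IWP-2 intensities were 16350, 12570, 13270 and 16110. Every treated value was lower than every control value, with the narrowest gap on array 4. The log2 ratios were -0.73, -0.87, -0.97 and -0.37, with a mean of -0.74 ± 0.26 (SD, n = 4) and an adjusted p of 0.0017 in limma. The probe lies at chr9:87599514-87599573 (mm9, minus strand). With the deposited table of fold changes in place of the scanner values, the mean was nearly the same (-0.73) but the adjusted p was 0.0812.

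Tbx4, a limb and lung mesenchyme factor, was far dimmer than Tbx18. It read 1107, 839, 1368 and 808 in the control channels and 624, 693, 630 and 516 in the IWP-2 channels. The groups did not overlap, and the spread lay mainly in the control values. The log2 ratios were -0.83, -0.28, -1.12 and -0.65, with a mean of -0.72 ± 0.35 (n = 4) and an adjusted p of 0.00118 in limma. The arrays with treated RNA in red gave the larger falls, and the dye term of Tbx4 had an unadjusted p of 0.0138 in limma. The part of the dye in its spread cancels in the mean of the balanced design. The probe lies at chr11:85729510-85729569 (mm9, plus strand). With the deposited fold changes the mean was -0.77 and the adjusted p was 0.0603.

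Tbx5, the paralogue of Tbx4, was the dimmest of the tested members by their brightest probes. It read 228, 187, 262 and 252 in the control channels and 143, 132, 164 and 162 in the IWP-2 channels, and the groups did not overlap. Its log2 ratios of -0.67, -0.50, -0.68 and -0.64 were the most even of the 4 members that fell. The mean was -0.62 ± 0.08 (n = 4), with an adjusted p of 0.000237 in limma. At this brightness the offset of 50 shrinks the ratio, and the change was -0.9985 with the processed signals of the scanner software and -1.02 with the deposited fold changes. Where genes were kept only above a mean processed signal of 100, Tbx5 was not tested. The probe lies at chr5:120334087-120334146 (mm9, plus strand).

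Tbx3, the brightest member, had a smaller change with little spread. It read 34320, 37110, 38550 and 34430 in the control channels and 26700, 31390, 26770 and 28060 in the IWP-2 channels, without overlap. Its log2 ratios were -0.36, -0.24, -0.53 and -0.30, with a mean of -0.36 ± 0.12 (n = 4) and an adjusted p of 0.00221 in limma. The probe lies at chr5:120134511-120134570 (mm9, plus strand). Tbx3 passed the test under all 15 processing alternatives, with log2 changes between -0.42 and -0.32.

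Tbx2, the closest relative of Tbx3, did not pass the test. It read 9266, 12500, 12480 and 10030 in the control channels and 9265, 10560, 10890 and 9422 in the IWP-2 channels, so that the groups overlapped. The log2 ratios were -0.00023, -0.24, -0.20 and -0.09, with a mean of -0.13 ± 0.11 (n = 4) and an adjusted p of 0.0942 in limma. The sign was negative on all 4 arrays, but on array 1 the difference was too small to count as one. Among all genes tested, 21% were lower on 4 of 4 arrays. The probe lies at chr11:85655391-85655450 (mm9, plus strand). Under the 15 alternatives its change stayed between -0.18 and -0.08 and its adjusted p between 0.0666 and 0.472.

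Tbx20, a heart factor, was measured by 3 probes, and none passed the test. The brightest, at chr9:24527750-24527809 (mm9, minus strand), read 602, 393, 412 and 742 in the control channels and 684, 463, 484 and 713 in the IWP-2 channels. Both channels of arrays 1 and 4 were above both channels of arrays 2 and 3, so this probe varied more between arrays than between treatments. Its mean log2 ratio was 0.15 ± 0.14 (n = 4), with an adjusted p of 0.0877 in limma. The other probes, at chr9:24563177-24563236 and chr9:24544715-24544774, had mean log2 ratios of -0.0024 ± 0.14 and 0.009 ± 0.16. Without replicate 4, the brightest probe stood at 0.22 with an adjusted p of 0.0212 in limma.

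Tbx1, a pharyngeal arch factor, read 740, 784, 973 and 653 in the control channels and 1040, 864, 834 and 790 in the IWP-2 channels. Its log2 ratios of 0.49, 0.14, -0.22 and 0.27 differed in sign between arrays. The mean was 0.17 ± 0.30 (n = 4), with an adjusted p of 0.273 in limma. Array 3 alone was negative, and without replicate 3 the mean was 0.35 with an adjusted p of 0.00898 in limma. The probe lies at chr16:18581807-18581866 (mm9, minus strand).

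**Figure D2:**
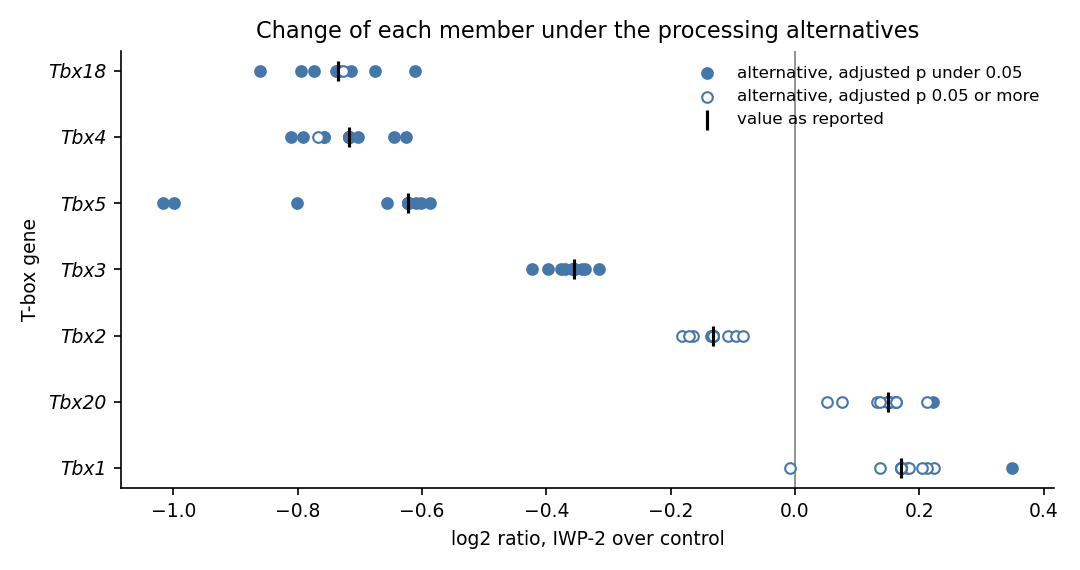
Mean log2 ratio of IWP-2 over control of each tested T-box member as reported (black bar) and under each processing alternative (circles, filled where the adjusted p was under 0.05). Tbx3 and Tbx5 are filled throughout, Tbx18 and Tbx4 have 1 open circle each, Tbx20 and Tbx1 have 1 filled circle each, and Tbx2 has none.

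Differences between paralogues were tested on the per-array log2 ratios in 21 pairs of the 7 members. With 4 arrays an exact sign-flip test cannot reach 0.05. The smallest p it allows was found for 15 of the 21 pairs, and the lowest adjusted p was 0.175, so no pair passed the test. Tbx3 was lower than Tbx2 by 0.22 ± 0.16 on the log2 scale (n = 4, exact p = 0.25), with a difference near 0 on array 2 and of 0.21 to 0.36 on the others. Tbx4 and Tbx5 differed by less than the spread between arrays, at -0.10 ± 0.28 (n = 4, exact p = 0.625). Tbx18 and Tbx4 also differed by less than that spread, at 0.02 ± 0.39 (n = 4, exact p = 1).

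Within the pairs of linked genes, the log2 ratio of Tbx4 was below that of its neighbour Tbx2 by 0.59 ± 0.40 (n = 4), with 74.1 kb between their probes, and on array 2 by only 0.03. The log2 ratio of Tbx5 was below that of its neighbour Tbx3 by 0.27 ± 0.09, with 199.6 kb between their probes. Both differences had 1 sign on all 4 arrays and the smallest p that the exact test allows, so neither passed the test. With median centring in place of loess the differences were 0.54 (exact p = 0.25) and 0.18 (exact p = 0.625), no longer of 1 sign on all arrays, and with processed signals they were 0.65 and 0.66.

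The other genes around the members were taken as those with their brightest probe within 250 kb of a tested member's probe. Of 22 such genes that are not members, 6 fell and 1 rose, beside 15% and 18.1% of all genes tested. On the Tbx3 side, the 2 non-coding RNAs measured nearby both fell. These were AW549542, 114.4 kb away, with a log2 ratio of -0.43 ± 0.15 and Gm38692, 72.7 kb away, with -0.41 ± 0.07 (n = 4, adjusted p of 0.00209 and 0.00101 in limma). RefSeq lists Gm38692 as Tbx3os1, a transcript of the strand opposite to Tbx3, and its probe lies on the minus strand. Gm38692 was dim, at 205 (geometric mean) in the control channels, and its change lay between -0.69 and -0.38 under 14 alternatives. All 4 genes measured on this stretch, Tbx3 and Tbx5 included, were thus among those that fell. The one gene measured near Tbx18 was D030062O11Rik, whose probe lies 27.2 kb from that of Tbx18 on the opposite strand. It read 246 (geometric mean) in the control channels and fell by 0.60 ± 0.18 on the log2 scale (n = 4, adjusted p = 0.00118 in limma). Under 14 alternatives its change lay between -0.96 and -0.51.

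Around Tbx2 and Tbx4 the picture was mixed. Of 6 other genes there, Bcas3os2, a non-coding RNA, fell by 0.24 ± 0.11 (n = 4, adjusted p = 0.0132 in limma), and Bcas3, 2610027K06Rik, Gm10372, AU014795 and ENSMUST00000118790 did not pass the test. The Bcas3os2 call was lost under 3 of 15 alternatives, among them without replicate 3. Near Tbx1, Cdc45, a DNA replication factor, fell by 0.55 ± 0.11 and Cldn5, an endothelial tight junction gene, rose by 0.37 ± 0.12 (n = 4, adjusted p of 0.000884 and 0.00151 in limma), while 8 other genes did not pass. Near Tbx20, the unnamed transcript NAP069232-1 fell by 0.36 ± 0.17 (n = 4, adjusted p = 0.00559 in limma), with the call lost under 1 of 15 alternatives.

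**Figure D3:**
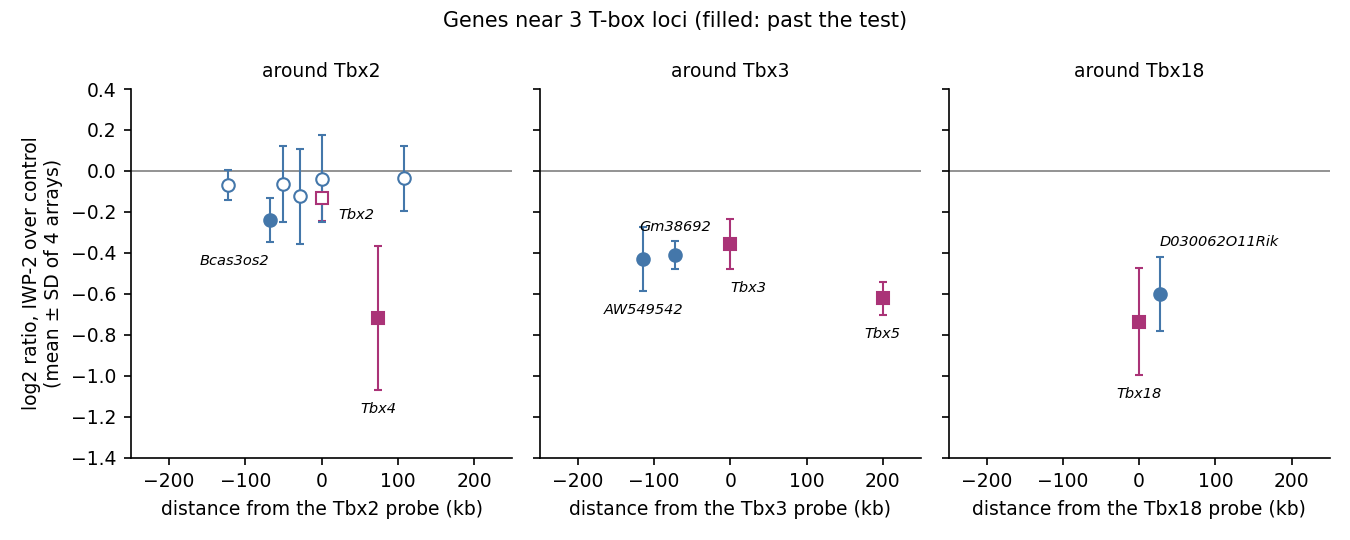
Mean log2 ratio of IWP-2 over control (error bars, SD of 4 arrays) of the genes within 250 kb of the Tbx2, Tbx3 and Tbx18 probes, by distance from that probe in kb. Squares are T-box genes, circles other genes, and filled symbols passed the test. The genes around Tbx3 and Tbx18 are all filled, with log2 ratios between -0.74 and -0.36, whereas around Tbx2 only Bcas3os2 and Tbx4 are filled.

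The rest of the family was read from 10 further gene symbols, of which 9 were on the array (Tbxt is listed there as T) and 7 could be tested. Of these, T and Tbr1 fell and Eomes and Tbx6 rose, all with small changes. Among all genes tested, 15% fell and 18.1% rose. T (brachyury), a WNT-responsive gene of the primitive streak, was barely above background. It read 135, 141, 150 and 134 in the control channels and 108, 112, 109 and 99 in the IWP-2 channels, with no overlap and a log2 ratio of -0.39 ± 0.07 (n = 4, adjusted p = 0.00152 in limma). With processed signals the change was -0.95, and with the deposited fold changes it was -0.43 with an adjusted p of 0.0684.

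Tbr1, a factor of cortical neurons, read 248, 223, 228 and 248 in the control channels and 197, 184, 191 and 190 in the IWP-2 channels. Its log2 ratio was -0.31 ± 0.06 (n = 4, adjusted p = 0.00282 in limma), and its second probe was not well above background. Eomes, a factor of early mesoderm and of lymphocytes, rose from 145 to 176 (geometric means), by 0.28 ± 0.09 (n = 4, adjusted p = 0.00394 in limma), and its second probe was likewise too dim. The changes of Tbr1 and Eomes were -0.45 and 0.52 with processed signals. Tbx6, a factor of presomitic mesoderm, rose by 0.27 ± 0.08 on its brighter probe (n = 4, adjusted p = 0.00468 in limma), but its second probe stood at -0.02 ± 0.07, and the mean of both probes gave 0.12 with an adjusted p of 0.0588. The probes of Tbx6 therefore disagree. Mga, which carries a T-box and also binds MAX, was the brightest of this set at 8292 (geometric mean, control) and did not pass the test, with a log2 ratio of 0.04 ± 0.06. Tbx10 (-0.04 ± 0.07) and Tbx22 (0.001 ± 0.04) did not pass either, and Tbx19 and Tbx21 were not well above background.

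**Figure D4:**
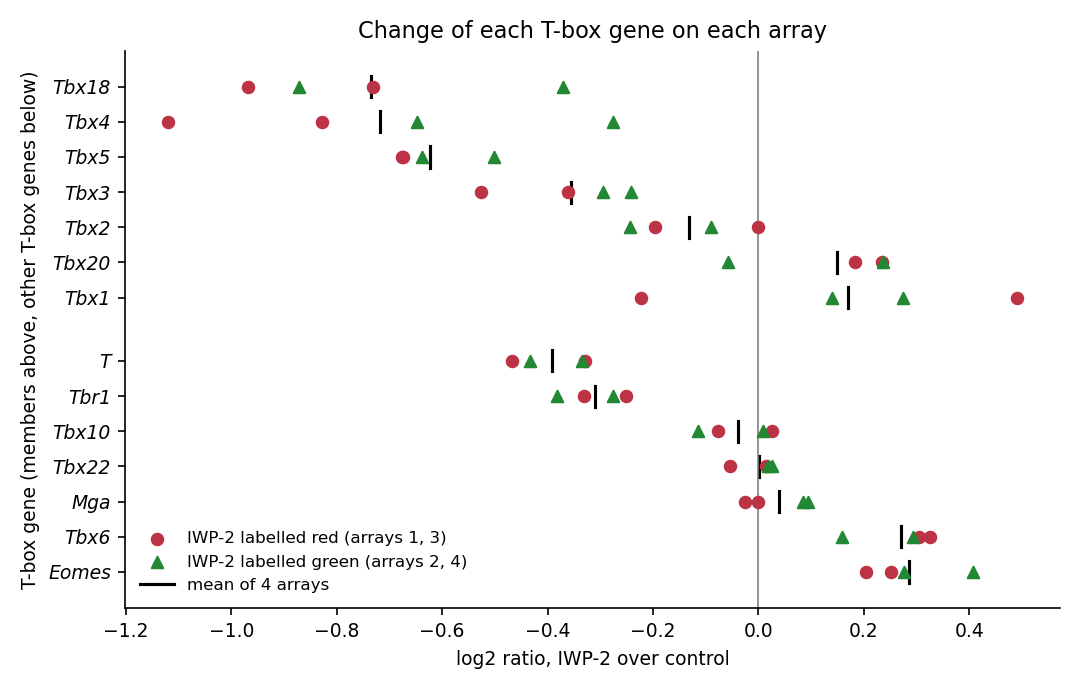
Log2 ratio of IWP-2 over control of each tested T-box gene on each array (red circles, treated RNA in the red channel; green triangles, in the green channel), with a bar at the mean. The upper block holds the 7 tested members, from Tbx18 at -0.74 to Tbx1 at 0.17, and the lower block the 7 other tested T-box genes, from T at -0.39 to Eomes at 0.28. Array 4 is set apart for Tbx18 (-0.37) and array 3 for Tbx1 (-0.22).

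Promoters were read from RefSeq (GRCm38.p6) to see whether the changes of T-box genes went along with a TCF/LEF motif, the DNA element through which β-Catenin acts, or with the core of the T-box element. Of the 8 members, Tbx1, Tbx4, Tbx18 and Tbx20 had an entry, and with the other T-box genes 13 genes with 16 promoters could be searched. CTTTGAA or CTTTGAT (TCF/LEF), searched on both strands over the 250 bases before and the 50 after the start, was present in 2 of the 16, those of T and Tbr1, beside 8.65% of all 32851 promoters of this length. GGTGTG (T-box core, both strands) was present in the promoter of Mga, behind its start, beside 19% of all promoters. None of the 5 promoters of the members held either motif. The bases before the start are shown for the members that fell and had an entry, Tbx18 (chr9:87731261-87731510, minus strand) and Tbx4 (chr11:85896515-85896764, plus strand), and for the TCF/LEF-bearing genes T (chr17:8434173-8434422, plus strand) and Tbr1 (chr2:61804203-61804452, plus strand), 5′ to 3′ with the TCF/LEF match in capitals. T holds the motif on the reverse strand and Tbr1 on the forward strand.
Tbx18: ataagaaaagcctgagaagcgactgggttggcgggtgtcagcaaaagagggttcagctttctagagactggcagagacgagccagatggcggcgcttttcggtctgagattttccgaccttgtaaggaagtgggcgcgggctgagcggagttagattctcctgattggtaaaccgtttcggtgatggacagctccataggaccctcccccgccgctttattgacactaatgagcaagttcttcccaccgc
Tbx4: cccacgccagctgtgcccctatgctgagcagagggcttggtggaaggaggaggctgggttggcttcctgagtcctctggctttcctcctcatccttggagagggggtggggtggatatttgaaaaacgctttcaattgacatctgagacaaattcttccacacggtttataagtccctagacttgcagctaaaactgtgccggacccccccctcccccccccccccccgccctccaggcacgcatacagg
T: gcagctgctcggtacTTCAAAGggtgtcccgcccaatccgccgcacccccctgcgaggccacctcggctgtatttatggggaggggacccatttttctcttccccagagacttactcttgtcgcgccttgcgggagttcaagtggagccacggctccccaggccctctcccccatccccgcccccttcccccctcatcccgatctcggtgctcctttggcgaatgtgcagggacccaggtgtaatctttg
Tbr1: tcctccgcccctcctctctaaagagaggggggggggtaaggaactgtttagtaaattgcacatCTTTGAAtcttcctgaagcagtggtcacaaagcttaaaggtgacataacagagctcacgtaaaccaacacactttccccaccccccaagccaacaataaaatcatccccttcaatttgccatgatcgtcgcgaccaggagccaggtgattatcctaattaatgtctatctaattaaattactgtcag
A match gives only the letters in these windows, and factors can act from elsewhere.

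The genes whose ratios followed those of Tbx18 and Tbx3 most closely over the 4 arrays were taken from 5686 other genes past the test with a gene symbol. For Tbx18 these were Fat1, an atypical cadherin (root mean square difference of 0.13 on the log2 scale, mean log2 ratio -0.64 ± 0.17), Gbp2 (0.14), Pcgf5 (0.16), Snx18 (0.17) and Cux2 (0.17). For Tbx3 they were Rbmxl1 (0.022), Fkbp7 (0.025), Mctp1 (0.034), Npy5r (0.037) and Itga1 (0.039). Likeness over 4 arrays is a description of these values only.

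For other transcription factors of the ureteric mesenchyme, 5 genes are given, which do not cover the whole list that was read. These 5 fell, beside 15% of all genes tested, and 2 of them did with the deposited fold changes. Foxf1, a mediator of Hedgehog signaling, fell by 2.24 ± 0.31 on the log2 scale, the largest fall among them. Tshz3, a factor needed for ureteric smooth muscle, fell by 1.21 ± 0.81 (adjusted p = 0.000952 in limma), with a dye term at an unadjusted p of 0.00147. Myocd, the activator of the smooth muscle program, fell by 0.58 ± 0.20, Sox9 by 0.57 ± 0.58 and Gata6 by 0.14 ± 0.02. Sox9 was higher with IWP-2 on array 2 (0.23), and its call was lost under 2 of 15 alternatives, that of Gata6 under 8 and that of Tshz3 under 1. The median of the 5 was -0.58.

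The co-repressors that T-box repressors can recruit were measured as 7 genes. Of these, 4 fell and 1 rose, beside 15% and 18.1% of all genes tested. Tle4 fell by 0.66 ± 0.09, Tle1 by 0.31 ± 0.10, Tle3 by 0.25 ± 0.15 and Hdac2 by 0.19 ± 0.06 (n = 4, adjusted p of 0.000295, 0.00589, 0.0279 and 0.0159 in limma). Tle2 rose by 0.20 ± 0.09 (adjusted p = 0.0127 in limma), and Hdac1 and Chd4 did not pass. Tle4 passed under all 15 alternatives, whereas the calls of Tle1, Tle2, Hdac2 and Tle3 were lost under 1, 2, 3 and 5 of them.

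Of 8 tested genes reported elsewhere as repressed by TBX2 or TBX3, 4 rose and 1 fell, beside 18.1% and 15% of all genes tested. The median log2 ratio of the 8 was 0.21, and they do not cover the whole list that was read. A link of their changes to Tbx2 or Tbx3 was not tested. Cdkn1a, a cell cycle inhibitor, rose by 0.40 ± 0.11, Frzb, a secreted WNT antagonist, by 0.37 ± 0.12, Cdh1, the epithelial cadherin, by 0.34 ± 0.07, and Nppa, a heart peptide, by 0.20 ± 0.10. Cdh1 is also on the list of epithelium markers, all of which rose. Gja5, a gap junction gene, fell by 0.48 ± 0.43. The calls of Gja5 and Nppa were lost under 2 alternatives and those of Cdkn1a and Frzb under 1. Gja1, Shisa3 and Cdkn1b did not pass, and Cdkn2a was not tested.

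Of 6 tested genes of the adventitia and its matrix, 2 rose and none fell, beside 18.1% and 15% of all genes tested. Aldh1a2, the retinoic acid synthesizing enzyme of the outer ureteric mesenchyme, rose by 0.63 ± 0.11 (n = 4, adjusted p = 0.000487 in limma) and Dcn, a matrix proteoglycan, by 0.17 ± 0.07, with the Dcn call lost under 6 of 15 alternatives. Col1a1, Col1a2, Col3a1 and Lum did not pass the test.

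Of 12 genes of the kidney mesenchyme, the program that TBX18 keeps out of the ureteric mesenchyme, 7 rose and 3 fell. The shares over all genes tested were 18.1% and 15%. A link of these changes to the fall of Tbx18 was not tested. Six2, the nephron progenitor factor, rose by 1.14 ± 0.27, Itga8 by 0.64 ± 0.12, Meox1 by 0.39 ± 0.21, Hoxa11 by 0.37 ± 0.06, Osr1 by 0.28 ± 0.14, Eya1 by 0.17 ± 0.23 and Cited1 by 0.16 ± 0.09. Crym fell by 0.96 ± 0.45, Hoxd11 by 0.29 ± 0.21 and Gdnf by 0.16 ± 0.18. Eya1 was lower with IWP-2 on array 3 (-0.07) and Gdnf was higher on array 1 (0.07). The dye terms of Eya1 and Gdnf had unadjusted p values of 0.00284 and 0.0175 in limma. Six2, Itga8 and Hoxa11 passed under every alternative run, and the calls of Crym and Meox1 were lost under 1, of Osr1 under 2, of Hoxd11 under 4, of Eya1 under 6, of Gdnf under 8 and of Cited1 under 9. Sall1 and Wt1 did not pass.

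Among 7 signals that act on this mesenchyme, 2 fell and 4 rose, beside 15% and 18.1% of all genes tested. Bmp4 fell by 1.31 ± 0.12 and Bmp5 by 0.61 ± 0.19. Shh, the epithelial Hedgehog ligand, rose by 0.54 ± 0.09, Bmp7 by 0.42 ± 0.06, Wnt7b by 0.21 ± 0.06 and Wnt9b by 0.17 ± 0.08, and Bmp2 did not pass. The Wnt9b call was lost under 7 of 15 alternatives and the Wnt7b call under 1.

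Markers of other cells moved as well. Among all genes tested, 18.1% rose. All 5 epithelium markers rose, by 0.24 to 0.34, but with the deposited fold changes 2 of them did. The summed intensity of the 5 was 162000 to 172900 in the control and 183000 to 231100 in the IWP-2 channels, without overlap. All 4 endothelium markers rose by 0.15 to 0.37 and all 3 blood markers by 0.19 to 0.30, with overlapping sums for both. Hbb-y was lower with IWP-2 on arrays 2 and 4 (-0.10 and -0.14, SD of 0.46 over 4 arrays) and Hba-a1 on array 2 (-0.03, SD of 0.27), and their dye terms had unadjusted p values of 5.02e-05 and 0.0028 in limma. The count of blood markers that rose was 1 with no dye term, with median centring and with no replicate block, and that of endothelium markers was 1 with the deposited fold changes and 2 with no replicate block, without replicate 3 and without replicate 4. Of the 4 general mesenchyme markers Pdgfrb rose by 0.80 ± 0.07, and Pdgfra, Vim and Col3a1 did not pass. The summed mesenchyme intensity was 234200 to 268900 in the control and 253200 to 270200 in the IWP-2 channels. The calls of Kdr, Hbb-bh1 and Pecam1 were lost under 10, 7 and 4 of 15 alternatives, and those of the other markers that rose under at most 2. All markers of these lists were well above background in at least 1 group. The part of cell composition in the falls of the T-box members was not tested.

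Markers of tissues in which the dimmer members are known were read as well. Of 3 tested heart muscle markers none passed the test, and their summed intensity was 372 to 394 in the control and 369 to 404 in the IWP-2 channels, with Myl7 not well above background. Of 3 hindlimb markers, 2 fell and 1 rose, beside 15% and 18.1% of all genes tested. Pitx1 fell by 0.58 ± 0.21 and Prrx1 by 0.45 ± 0.09, both of which are also expressed in other mesenchyme. Lhx9 rose by 0.41 ± 0.18, but was barely above background. It read 93.5 to 109 in the control and 116 to 148 in the IWP-2 channels. The Lhx9 call was lost with the deposited fold changes, and that of Pitx1 with no replicate block. The mesothelium marker Upk3b rose by 0.52 ± 0.63 (adjusted p = 0.0483 in limma, lost under 7 of 14 alternatives), and the mesothelium markers Msln and Wt1 and the neural crest marker Sox10 did not pass.

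**Figure D5:**
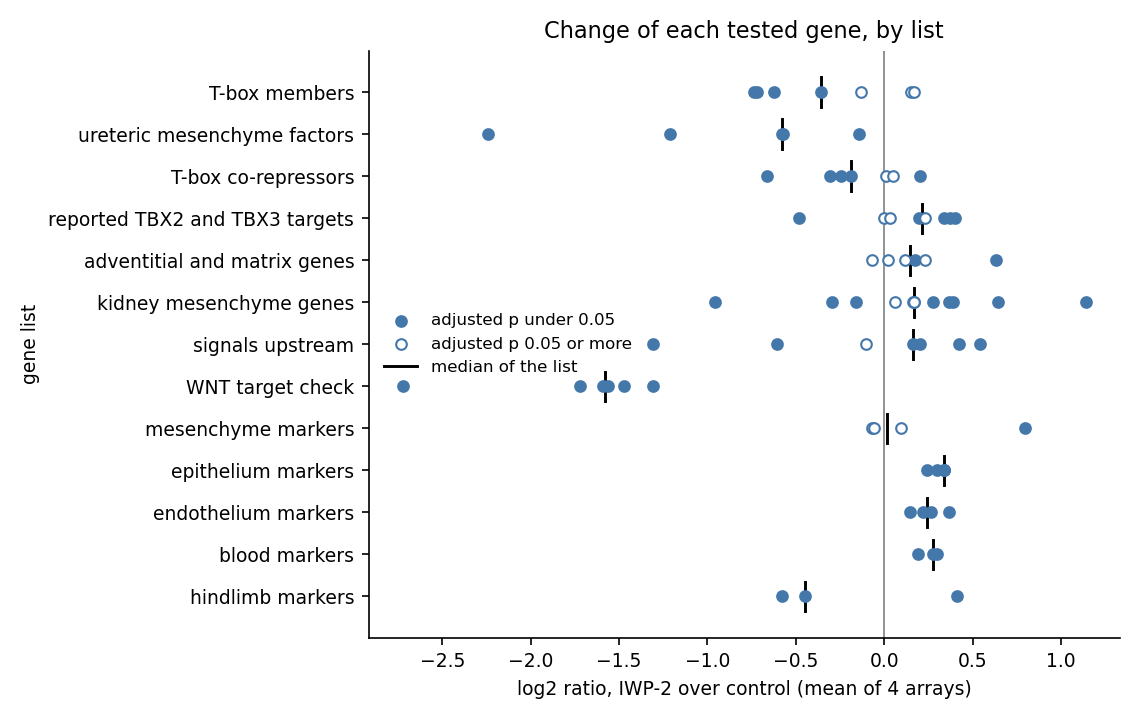
Mean log2 ratio of IWP-2 over control of each tested gene by gene list (filled, adjusted p under 0.05), with a bar at the median of the list. The T-box members have a median of -0.36, the 5 ureteric mesenchyme factors shown -0.58, the WNT target check -1.58 and the epithelium markers 0.34.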

How the data were processed

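Spots were read and quantified by the authors with Agilent Feature Extraction 10.7.3.1; per the file headers, the deposited files hold raw mean and background intensities, processed intensities (background-subtracted and dye-normalised) and a log10 ratio of red over green for each spot. The array design maps its probes to mm9. A deposited series table holds signed fold changes rounded to 1 decimal, of unstated normalisation. It was used as an alternative only, and each of its columns had a median of 1.

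Raw intensities were background-corrected (normexp, offset 50) and normalised within each array (loess, span 0.3) with limma 3.58.1 in R 4.3.3, with control spots at weight 0 and outlier spots left out. Ratios were turned to IWP-2 over control. Channel levels were taken after between-array scaling of the mean brightness (Aquantile). A gene was tested where more than a share of 0.5 of its probe's spots were well above background on all 4 arrays of a group, and its brightest probe was used. limma was fitted to 22455 genes with a dye term, and adjusted p (Benjamini-Hochberg) under 0.05 was called. The script was tested on simulated data.

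The members and gene lists were chosen with earlier results of these data known. Genes of 3 lists (ureteric mesenchyme factors, TBX2 and TBX3 targets, neural crest markers) are in part not reported here, and the counts and medians of these lists leave them out. Named were all T-box genes, list members past the test, genes within 250 kb of a tested member and the 5 genes most like Tbx18 and Tbx3. Of the 15 alternatives, 4 left out 1 array each. All arrays lay on 1 slide with 1 scan time, so no slide or scan block could be fitted. The number of arrays limits the precision.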

Additional observations from a re-analysis of the deposited data

Results flagged for a closer look

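Of 88 genes examined, 4 had 1 array far from the other 3, measured as the gap to the nearest array over the whole range of the 4 log2 ratios. Chance alone gives such a gap in about 1 of 20 genes, so this number is close to that. The share was 0.91 for Bmp4, whose fall was smallest on array 1 (-1.13 beside -1.37 to -1.35), 0.88 for Prrx1, whose fall was largest on array 3 (-0.58), and 0.87 for Hdac2, whose fall was also largest on array 3 (-0.28). It was 0.85 for Tbx22, the only T-box gene among them, with -0.05 on array 3 beside 0.01 to 0.03 on the others. None of the 7 tested members of the T-box set was among them.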

How the results depend on the processing

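The count of 4 members that fell was the same under 13 of 15 alternatives. It was 2 with the deposited table of fold changes, where Tbx18 and Tbx4 kept their direction and size but had adjusted p values of 0.0812 and 0.0603, and 3 where dim genes were left out by a mean processed signal of 100, since Tbx5 was then not tested. Leaving out each array in turn gave 4 members lower each time and 0 to 1 higher, the latter being 1 without replicate 3 (Tbx1) and 1 without replicate 4 (Tbx20). With the 8 channels as separate samples and no replicate block, 4 members were lower and 0 higher. The difference of Tbx4 minus Tbx5 changed sign, to 0.043 with an offset of 10, 0.24 with processed signals and 0.25 with the deposited fold changes, and lay between -0.20 and 0.021 without each array in turn, so neither can be placed below the other. The changes of the dim genes Tbx5, T, Tbr1 and Eomes were larger in size with processed signals (-0.9985, -0.95, -0.45 and 0.52). Mga stood at 0.07 with an adjusted p of 0.00754 with the deposited fold changes. Over all genes, 3360 fell and 4068 rose, beside 2050 and 1833 with the deposited fold changes, 2068 and 2033 with no replicate block, 2483 and 3846 with processed signals, 2551 and 2965 with no dye term, and 2180 and 2878 without replicate 3. The cause of these shifts was not tested. The scale of the deposited fold changes is coarse, at 1 decimal, and how they were centred on a median of 1 is not known. On the log2 scale they correlated with the ratios of the processed signals, with r of 0.989 to 0.992. This covered only probes with a processed signal over 100, and no correlation with the loess-normalised ratios is given here.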
